A study of Mus musculus with 6 samples.

Results

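The Kruppel-like factors are a family of transcription factors, and the 10 genes Klf2, Klf3, Klf4, Klf5, Klf6, Klf7, Klf9, Klf10, Klf11 and Klf13 are described here in mouse kidney epithelial cells that lost their attachment. They were read by name, as the rows whose gene is listed under exactly that symbol. The list was drawn up with earlier results of these data known. It leaves out 7 other KLF genes, given below, among them Klf16, which was called lower. All 10 had 1 row each among the 37757 rows of the authors' deposited table, and all 10 passed the authors' own minimum for testing. The cells came from C57/Bl6J mice 8 weeks old with the genotype Bim-/- Bmf-/-, which is labelled as lacking a pair of genes that promote cell death. All libraries, the attached controls included, carry that genotype, so no cells with intact death genes were compared. The cells were kept attached or were held in suspension culture for 4 h, the latter titled Anoikis, a form of death that follows detachment, with 3 mRNA sequencing libraries for each condition and 6 in all.

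Each gene has 1 FPKM per condition (fragments scaled by transcript length and library size), which the authors made over the libraries of that condition, with a q (a p adjusted over all tested rows) from their own test. Values per library were not analysed here, so replicate spread and depth are unknown. Whether the libraries of a condition stem from separate cultures or animals is not stated in the labels, and p-values then measure only the spread between these libraries, which may be technical. The condition of each column was read from the last letter of its name, A for attached and S for suspension. "Called" means q below 0.05. All 9 kidney epithelial marker genes looked at were present, 3 of them called higher and 5 lower, beside 24.7% and 26.3% of all tested rows. They summed to 2727 FPKM attached and 2571 FPKM suspended (authors' deposited table). Most of both sums came from the keratins and Cdh16, while the kidney lineage factors Pax2 and Pax8 fell from 150 to 30.9 and from 104 to 37.1 FPKM (q = 0.000185, authors' deposited table).

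Kruppel-like factors bind GC-rich and CACCC-type DNA through zinc fingers at their C-terminal end, while their N-terminal parts differ and recruit different partners. Klf2, Klf4, Klf5, Klf6 and Klf7 are usually grouped as activators that work with acetyltransferases such as p300. Klf3 recruits the co-repressor CtBP, and Klf9, Klf10, Klf11 and Klf13 recruit the co-repressor Sin3. In kidney and other epithelia members of the family are known for roles in proliferation, differentiation and the response to injury, and several are induced rapidly by stress, hormones or mechanical force.

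The 250 bases before the annotated start were read from RefSeq (build GRCm38.p6, the assembly also called mm10) for 8 of the 10 genes. For 7 of the 8 the first bases after that start are in a GENCODE transcript. The windows of Klf2, Klf3, Klf6 and Klf11 reach past the GENCODE gene start, and that of Klf7 lies wholly inside its GENCODE gene. The windows of 5 genes are printed, because these include the 4 that rose most and, for contrast, Klf3, whose 2 values were nearly equal. Each is written 5′ to 3′ on the strand of its gene, and capitals mark motif matches on either strand. In Klf2 capitals mark a MEF2 motif, GC boxes (GGGCGG), the box named for CACCC (searched as CCACCC) and the core of a cyclic AMP response element (TGACG). In Klf9 they mark a FOXO motif (GTAAACA), an AP-1 motif (TGANTCA), the boxes spelled CCAAT and the core TGACG. In Klf4 they mark GC boxes, an E-box (CACGTG) and TGACG, in Klf11 GC boxes, an E-box and CCAAT boxes, and in Klf3 GC boxes and CACCC boxes.
Klf2, chr8:72318812-72319061, plus strand: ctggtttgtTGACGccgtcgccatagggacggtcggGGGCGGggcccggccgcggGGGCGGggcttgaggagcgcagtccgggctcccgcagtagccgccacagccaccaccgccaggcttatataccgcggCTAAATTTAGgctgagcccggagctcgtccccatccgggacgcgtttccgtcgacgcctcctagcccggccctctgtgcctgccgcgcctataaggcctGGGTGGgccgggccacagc
Klf4, chr4:55532476-55532725, minus strand: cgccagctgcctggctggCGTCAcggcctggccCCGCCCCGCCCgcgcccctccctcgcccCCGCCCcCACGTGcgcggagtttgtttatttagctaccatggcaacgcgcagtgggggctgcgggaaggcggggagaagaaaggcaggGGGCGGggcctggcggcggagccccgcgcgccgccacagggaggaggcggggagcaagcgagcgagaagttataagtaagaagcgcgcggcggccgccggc
Klf9, chr19:23140976-23141225, plus strand: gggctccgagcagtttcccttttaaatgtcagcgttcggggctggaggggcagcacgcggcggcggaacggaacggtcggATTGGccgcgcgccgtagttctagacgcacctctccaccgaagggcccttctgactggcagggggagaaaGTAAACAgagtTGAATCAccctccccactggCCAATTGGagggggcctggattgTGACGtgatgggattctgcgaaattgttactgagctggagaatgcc
Klf11, chr12:24651121-24651370, plus strand: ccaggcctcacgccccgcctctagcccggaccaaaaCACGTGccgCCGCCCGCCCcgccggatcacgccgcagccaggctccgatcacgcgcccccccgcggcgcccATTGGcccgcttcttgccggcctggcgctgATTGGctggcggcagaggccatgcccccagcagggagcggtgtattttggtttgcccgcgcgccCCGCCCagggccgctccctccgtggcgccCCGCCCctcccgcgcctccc
Klf3, chr5:64803271-64803520, plus strand: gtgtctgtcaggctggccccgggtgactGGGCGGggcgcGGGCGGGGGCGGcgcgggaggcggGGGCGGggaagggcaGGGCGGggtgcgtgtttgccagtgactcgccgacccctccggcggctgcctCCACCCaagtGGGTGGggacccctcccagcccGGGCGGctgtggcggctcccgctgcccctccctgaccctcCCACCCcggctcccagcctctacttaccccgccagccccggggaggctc

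The windows were rich in G and C, with 59.2% (Klf7) to 78.4% (Klf3) against a median of 52.4% over the 32851 promoter windows of the same length. A GC box, a site that KLF and SP proteins bind, was found in 7 of the 8 windows, all but that of Klf9, and in 32.7% of all windows. The shares over all windows were not matched for G and C content, so they are no like-for-like comparison. Klf3 held 6 GC boxes, and Klf4 and Klf11 held 4 each. CACCC boxes were found in Klf2, Klf3, Klf7 and Klf13, and in 28.1% of all windows. CCAAT boxes were found in Klf6, Klf9, Klf11 and Klf13, and in 33.8% of all windows. Neighbouring matches overlap in places, such as GC boxes in Klf4 and Klf11, a GC box and a CACCC box in Klf13, 2 CCAAT matches on opposite strands in Klf9, and a GC box and an antioxidant response element in Klf3.

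Motifs of factors that respond to signals were then searched on both strands. A match to the MEF2 motif, CTAAATTTAG, begins 118 bases before the start of Klf2. No other of the 8 windows held one, and 2.92% of all windows did. MEF2 proteins are known to act on the Klf2 promoter downstream of the kinase ERK5. The FOXO match (3.17% of all windows) lies 100 bases and the AP-1 match (6.75% of all windows) 89 bases before the start of Klf9. E-boxes were found in Klf4, Klf6 and Klf11 (6.02% of all windows), and TGACG in Klf2, Klf4, Klf9 and Klf13 (17.8%). A match to the antioxidant response element (TGACNNNGC, 10.2%) was found in Klf3 and Klf6, and the SMAD motif GTCTG (42.2%) in Klf3. No match was found in these 8 windows for TATAAA (12.4% of all windows), the full cyclic AMP response element TGACGTCA (1.55%), the TEAD motif GGAATG (12.6%), the heat shock motif GAANNTTC (6.69%), the glucocorticoid response motif (0.387%) or the CArG box (1.47%). A match describes letters in the window and does not show binding.

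**Figure D1:**
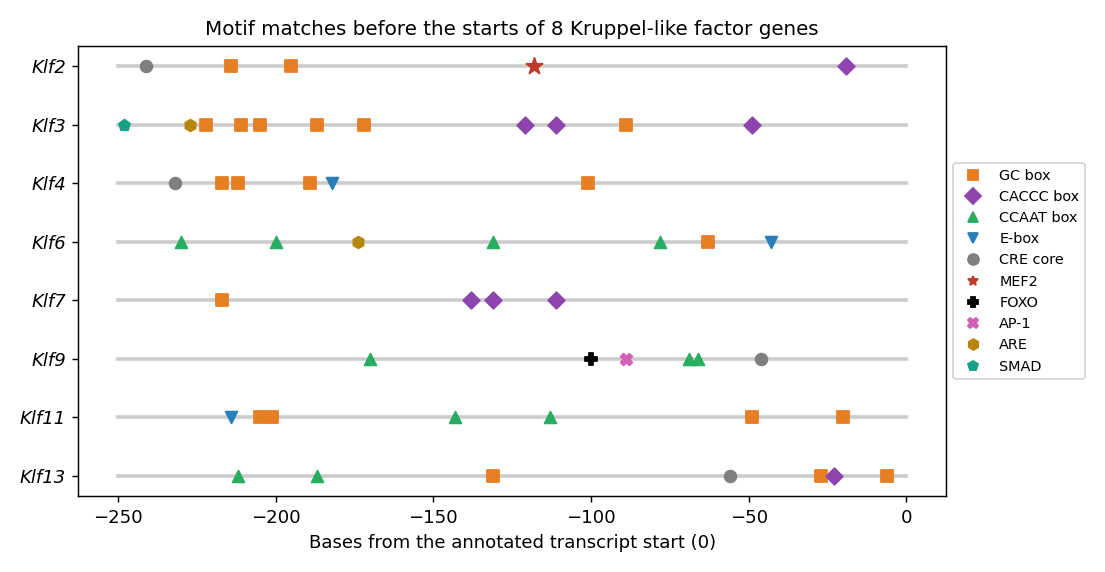
Position of each motif match (symbols, by its first base on the gene's strand) in the 250 bases before the annotated transcript start of 8 genes, with distance from the start in bases on the horizontal axis. Klf2 carries the MEF2 match, 118 bases before its start, and Klf9 carries the FOXO and AP-1 matches and no GC box.

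Suspension went with higher transcript levels for 6 of the 10 genes and with a lower level passing the test for 0. Klf2, Klf4, Klf6, Klf9, Klf10 and Klf11 were called higher, with rises from 1.43-fold to 13.7-fold, and Klf3, Klf5, Klf7 and Klf13 were not called (authors' deposited table). Of all 14748 tested rows, 24.7% were called higher and 26.3% lower, 51.0% in either direction (authors' deposited table). Because the 10 were chosen with earlier results known, their counts beside these shares are a description and not a test. A rise of at least 2-fold was called for 4 of the 10, Klf2, Klf4, Klf9 and Klf11, against 12.4% of tested rows (7.12% had a called fall of that size). The median log2 fold change was 0.70 over the 10 genes and -0.04 over the 14616 tested rows above 0 in both conditions. Over rows with at least 1 FPKM in both conditions the median was -0.11, and relative to it the uncalled Klf3 and Klf13 turn from lower to slightly higher (0.10 and 0.0024). Each of the 6 called genes has p = 5e-05 and q = 0.000185, the lowest values in the authors' deposited table, which 4278 tested rows share, so these p-values do not rank the 6. Called genes whose FPKM are given below carry that same q unless a different value stands beside them. In RNA from a whole culture, a change in the share of cells of one kind and a change in transcripts per cell cannot be told apart.

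**Figure D2:**
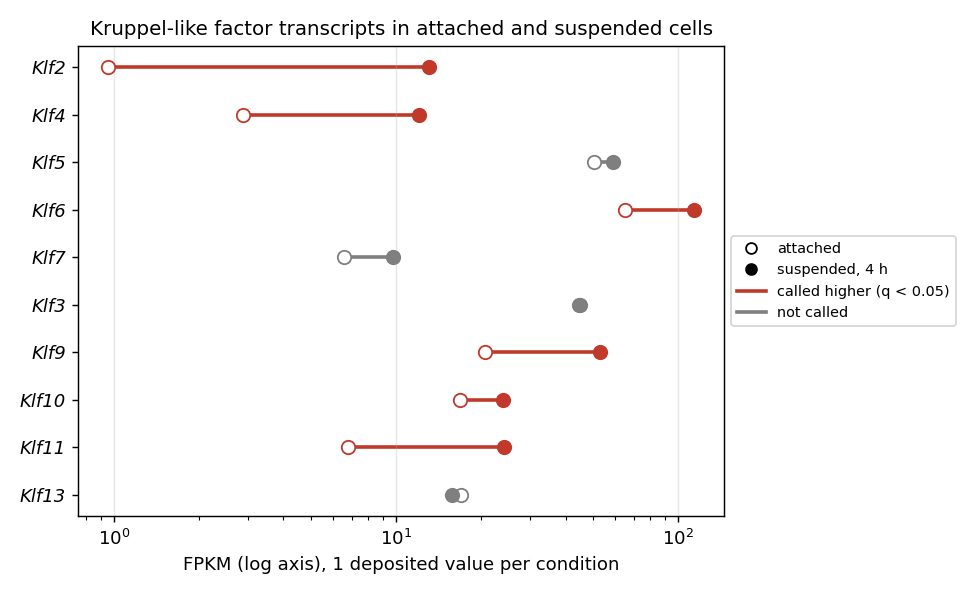
FPKM of the 10 genes on a log axis, 1 value per condition (authors' deposited table), where an open circle marks attached cells, a filled one suspended cells and the line colour the call. Klf2 spans 0.953 to 13.1 FPKM, while the circles of Klf3 lie on each other at 44.9 and 44.7 FPKM.

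Among the activator group 3 of 5 members rose and 2 were not called, beside 24.7% of all tested rows called higher. Klf2, known for its induction by flow in endothelium and for keeping T cells quiescent, stood at 0.953 FPKM attached and 13.1 FPKM suspended (authors' deposited table). That is a 13.7-fold rise (log2 of 3.78), and 98.0% of tested rows above 0 in both conditions had a lower fold change. Klf2 is a short gene on chromosome 8, positions 72319033 to 72321656 on the plus strand of mm10, with 1 annotated transcript of 3 exons, and no other GENCODE gene overlaps its row. Klf4, a regulator of epithelial differentiation and barrier formation and one of the reprogramming factors, went from 2.88 to 12.1 FPKM, a 4.22-fold rise (authors' deposited table). Its row covers chromosome 4, positions 55527143 to 55532466, on the minus strand, and no other GENCODE gene overlaps it. These 2 genes had the lowest levels of the 10 in attached cells, and in suspension their values were close to each other.

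Klf6, an early-response factor in tissue injury, had the highest level of the 10 in both conditions, 65.1 FPKM attached and 114 FPKM suspended (authors' deposited table). Its rise of 1.76-fold gave the largest gain in level of the 10, 49.4 FPKM. The Klf6 row covers chromosome 13, positions 5861489 to 5870393, and the Klf5 row chromosome 14, positions 99298691 to 99313405, both on the plus strand with no other GENCODE gene over them. Klf5, which promotes proliferation in many epithelia and is known in the kidney from the collecting duct, stood at 50.3 and 59.0 FPKM (q = 0.0755, authors' deposited table). Klf7, studied mostly for axon growth, stood at 6.55 and 9.79 FPKM (q = 0.124, authors' deposited table). The 1.49-fold difference of Klf7 was not called and the smaller 1.43-fold rise of Klf10 was. The Klf7 row (chromosome 1, positions 64029447 to 64122282) is overlapped by Gm26649, a noncoding RNA on the opposite strand whose own row had 7.54 and 7.68 FPKM (q = 0.932, authors' deposited table). Whether strand was counted is not given in the sources used here, so the Klf7 level is uncertain.

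Among the Sin3-binding genes of the list 3 of 4 rose and 1 was not called, beside 24.7% of all tested rows called higher. Klf16, a Sin3-binding gene outside the list, was called lower and is given below. Klf9, a target of glucocorticoid and thyroid hormone receptors, went from 20.7 to 53.2 FPKM, a 2.58-fold rise (log2 of 1.36, authors' deposited table). It added 32.5 FPKM and moved from the fourth to the third highest level of the 10. Klf11, also known as a TGF-beta inducible early gene, went from 6.76 to 24.2 FPKM, a 3.59-fold rise (log2 of 1.84, authors' deposited table). Klf10, the other gene of that name, went from 16.8 to 24.0 FPKM, a 1.43-fold rise (authors' deposited table). Attached cells had less Klf11 than Klf10 transcript, and suspended cells had nearly equal deposited levels. Klf13, a regulator of chemokine genes in lymphocytes, stood at 17.0 and 15.8 FPKM (q = 0.466, authors' deposited table). Its row (chromosome 7, positions 63886347 to 63938915) is overlapped on the opposite strand by E030018B13Rik, listed at 0 in both conditions (authors' deposited table). Gm27252, also on the opposite strand, overlaps it and has no row of its own. The row of RP23-387F1.3 overlaps it too, at 0.0775 and 0.0999 FPKM and not tested (authors' deposited table). The rows of Klf9 (chromosome 19, positions 23141226 to 23166911), Klf11 (chromosome 12, positions 24651371 to 24662774) and Klf10 (chromosome 15, positions 38294413 to 38300707) overlap no other GENCODE gene, except that Klf9 holds the microRNA Mir1192, listed at 0 in both conditions (authors' deposited table).

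Klf3, the CtBP-binding repressor of the list, had 44.9 FPKM attached and 44.7 FPKM suspended (log2 of -0.01, q = 0.963, authors' deposited table). Its row runs over positions 64708207 to 64830129 of chromosome 5, which is 121923 bases, while the GENCODE gene has 29514. The extra length covers Gm20033, an RNA on the opposite strand that has a row of its own with 0.456 and 0.403 FPKM (q = 0.935, authors' deposited table). C230096K16Rik, on the same strand as Klf3, also overlaps the row and has none of its own. The span of the row reaches past Klf3, and whether reads of other transcripts enter its level is not known. Klf8 and Klf12, CtBP-binding genes outside the list, were called higher and are given below.

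The 10 levels lay closer together in suspended than in attached cells. The highest level was 68.3 times the lowest in attached cells and 11.7 times in suspended cells. The summed level went from 232 to 370 FPKM, and Klf3, Klf5 and Klf6 made up 69.1% of it attached and 58.9% suspended. Klf2 and Klf4 together made up 1.65% attached and 6.81% suspended. The order from highest to lowest was Klf6, Klf5, Klf3, Klf9, Klf13, Klf10, Klf11, Klf7, Klf4 and Klf2 in attached cells. In suspended cells it was Klf6, Klf5, Klf9, Klf3, Klf11, Klf10, Klf13, Klf2, Klf4 and Klf7. No spread is known, so neighbours with close values, such as Klf13 and Klf10 attached or Klf11 and Klf10 suspended, cannot be ranked. Relative to other transcripts, 6 of the 10 lay above the median tested row attached (9.91 FPKM) and 10 of 10 above it suspended (9.69 FPKM).

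**Figure D3:**
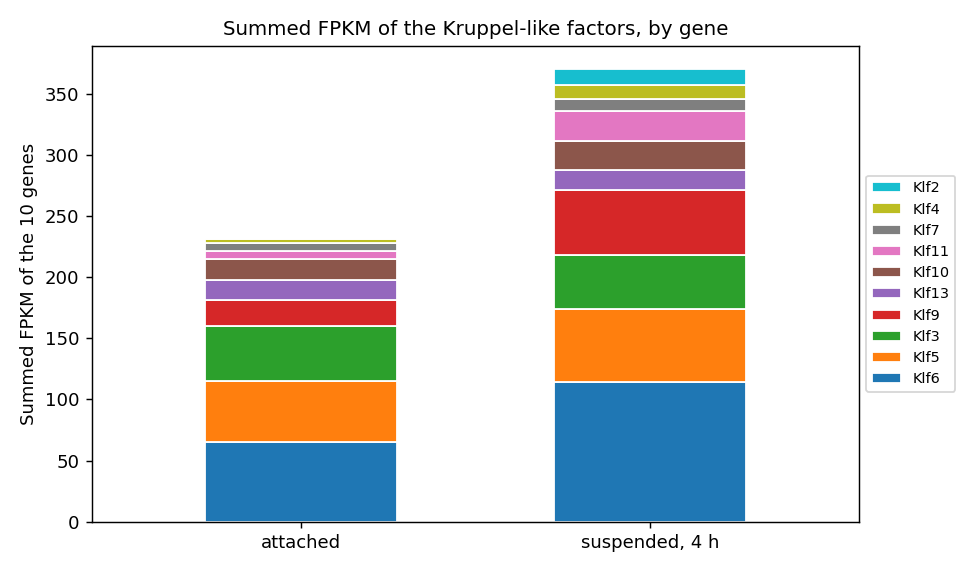
Summed FPKM of the 10 genes (vertical axis, from 0), stacked by gene, for attached and suspended cells (authors' deposited table), with 1 pooled value per gene and condition and no error bars. The stack grows from 232 to 370 FPKM, and Klf2 is too thin to see in attached cells.

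Klf16 was the 1 other KLF gene above 2 FPKM in either condition. Of the 7 other KLF genes 4 were tested, 2 were called higher, 1 lower and 1 was not called. Klf8, a CtBP-binding factor reported to act downstream of focal adhesion kinase, went from 0.229 to 1.88 FPKM (authors' deposited table). Klf12, a repressor of the AP-2alpha gene of the same CtBP-binding group, went from 0.0346 to 0.638 FPKM (q = 0.0164, authors' deposited table). Klf16, a Sin3-binding factor, fell from 18.4 to 12.5 FPKM (q = 0.000185), the 1 KLF gene called lower (authors' deposited table). Klf15, which is abundant in whole kidney, stood at 0.289 and 0.320 FPKM (q = 0.785, authors' deposited table). Klf1, Klf14 and Klf17 were not tested, each at no more than 0.120 FPKM in either condition (authors' deposited table). Over all 17 KLF genes 14 were tested, of which 8 were called higher and 1 lower. The shares of all tested rows were 24.7% higher and 26.3% lower.

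The SP factors share the zinc finger type and the GC-box site with the KLF proteins. All 4 that were tested rose, beside 24.7% of all tested rows called higher, and 5 of the 9 were not tested. Sp1, the broadly expressed founder of the group, went from 21.2 to 53.3 FPKM, and Sp3, its close relative, from 33.4 to 46.8 FPKM (authors' deposited table). Sp4 went from 2.14 to 7.23 FPKM and Sp2 from 7.15 to 15.2 FPKM, each at q = 0.000185 (authors' deposited table). Their median log2 fold change was 1.21, beside 0.70 for the 10 KLF genes.

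**Figure D4:**
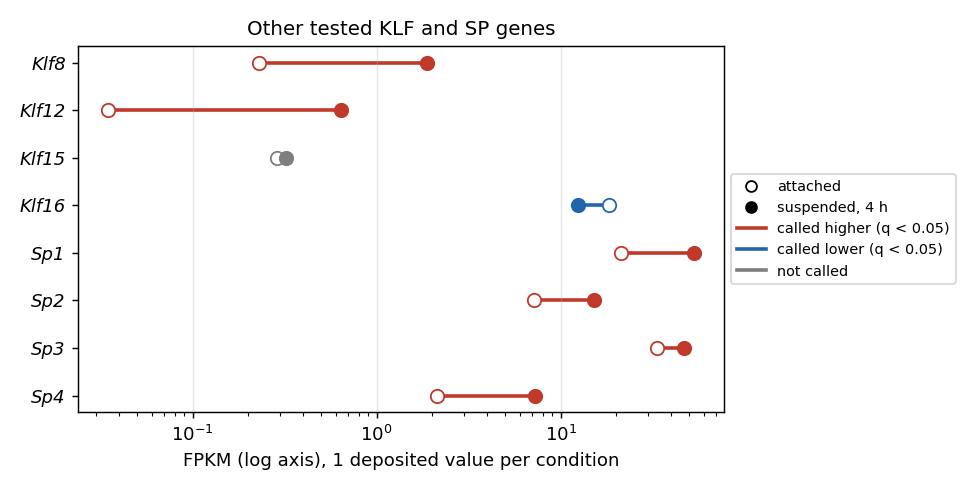
FPKM of the 8 other KLF and SP genes that were tested, on a log axis, 1 value per condition (authors' deposited table), with open symbols for attached and filled ones for suspended cells and line colour for the call. Klf16 is the 1 gene that moved to the left, from 18.4 to 12.5 FPKM, and Klf8 and Klf12 start below 1 FPKM.

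Genes known to act upstream of the family were read from lists chosen by function, beside 24.7% of all tested rows called higher and 26.3% lower. The ERK5 route runs through the kinases MEK5 (Map2k5) and ERK5 (Mapk7) to MEF2 factors, which class IIa histone deacetylases restrain, and it is known to induce Klf2 and Klf4. Of its 10 tested genes 5 were called higher, 2 lower and 3 were not called, with a median log2 fold change of 0.26. Hdac5, 1 of these deacetylases, rose from 6.23 to 47.3 FPKM and Hdac4 from 2.61 to 4.34 FPKM, whereas Hdac7 fell from 43.2 to 22.6 FPKM (q = 0.000355, authors' deposited table). Map2k5 fell from 15.2 to 9.89 FPKM (authors' deposited table). Of the genes outside the naming rule, picked with their values known, Mapk7 rose from 13.6 to 17.6 FPKM (q = 0.0198) and Mef2d from 25.0 to 33.3 FPKM (q = 0.0473), while Mef2a stood at 40.0 and 44.3 FPKM (q = 0.257, authors' deposited table). Mef2b has no row of its own, and Mef2c was not tested.

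The TGF-beta pathway, which gave Klf10 and Klf11 their older names, had 6 of 14 genes called higher, 5 lower and 3 not called. Its median log2 fold change was 0.13, and of all tested rows 24.7% were called higher and 26.3% lower. Tgfb2, a ligand, rose from 0.466 to 2.67 FPKM and Tgfbr2, a receptor, fell from 165 to 70.3 FPKM (authors' deposited table). The inhibitor Smad7, which Klf10 and Klf11 are known to repress, fell from 18.0 to 2.45 FPKM (authors' deposited table). Of 8 tested genes of the glucocorticoid response, which is known to include Klf9, 5 rose and 3 fell. The receptor Nr3c1 rose from 20.9 to 36.6 FPKM, and the response genes Fkbp5 and Cebpd rose from 0.705 to 3.75 and from 4.21 to 14.3 FPKM (authors' deposited table). Errfi1, a response gene of the same list and a feedback inhibitor of the EGF receptor, fell from 36.8 to 17.9 FPKM (authors' deposited table).

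Co-regulators and ubiquitin ligases of the KLF proteins differed in direction, and of all tested rows 24.7% were called higher and 26.3% lower. Of 15 co-regulators tested 2 rose, 7 fell and 6 were not called, with a median log2 fold change of -0.10. The deacetylases Hdac1 and Hdac2, which work with Sin3, fell from 19.0 to 9.24 and from 69.3 to 41.6 FPKM (authors' deposited table). The histone methyltransferase Ehmt2 fell from 60.1 to 37.1 FPKM, and the acetyltransferase Crebbp rose from 5.19 to 7.80 FPKM (authors' deposited table). Only Hdac1 among the 9 called co-regulators changed by 2-fold or more. Of 7 ubiquitin ligase genes reported to act on KLF proteins 3 rose, 1 fell and 3 were not called. Fbxo32, reported to act on Klf4, rose from 1.40 to 13.6 FPKM, Smurf1 from 19.2 to 41.2 and Siah1a from 13.6 to 25.5 FPKM (authors' deposited table). Wwp1, which acts on Klf2 and Klf5, fell from 9.53 to 7.47 FPKM (q = 0.0159, authors' deposited table).

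Genes reported as direct targets of KLF proteins went both ways, and Smad7, Tgfb1 and Tgfbr1 among them also stand in the TGF-beta list. Of 17 tested 9 rose, 5 fell and 3 were not called, with a median log2 fold change of 0.32. Among all tested rows 24.7% were called higher and 26.3% lower. Atf3, a stress factor reported as a partner and target of Klf6, rose from 6.80 to 52.2 FPKM, and Klf8, which Klf3 represses, rose as given above, while Klf3 was not called (authors' deposited table). Ccnd1, a G1 cyclin that Klf5 is known to raise and Klf4 to lower, fell from 799 to 128 FPKM (authors' deposited table). The genes that follow were picked with their values known. Thbd, which Klf2 raises in endothelium, fell from 40.7 to 8.92 FPKM, and Edn1, which Klf2 lowers there, fell from 3.48 to 1.03 FPKM (authors' deposited table). Nos3, the endothelial nitric oxide synthase, was not tested, at 0.0289 and 0.0720 FPKM (authors' deposited table). Cdkn1a and Cdh1, both known to be raised by Klf4, rose from 165 to 368 and from 95.4 to 201 FPKM (authors' deposited table).

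**Figure D5:**
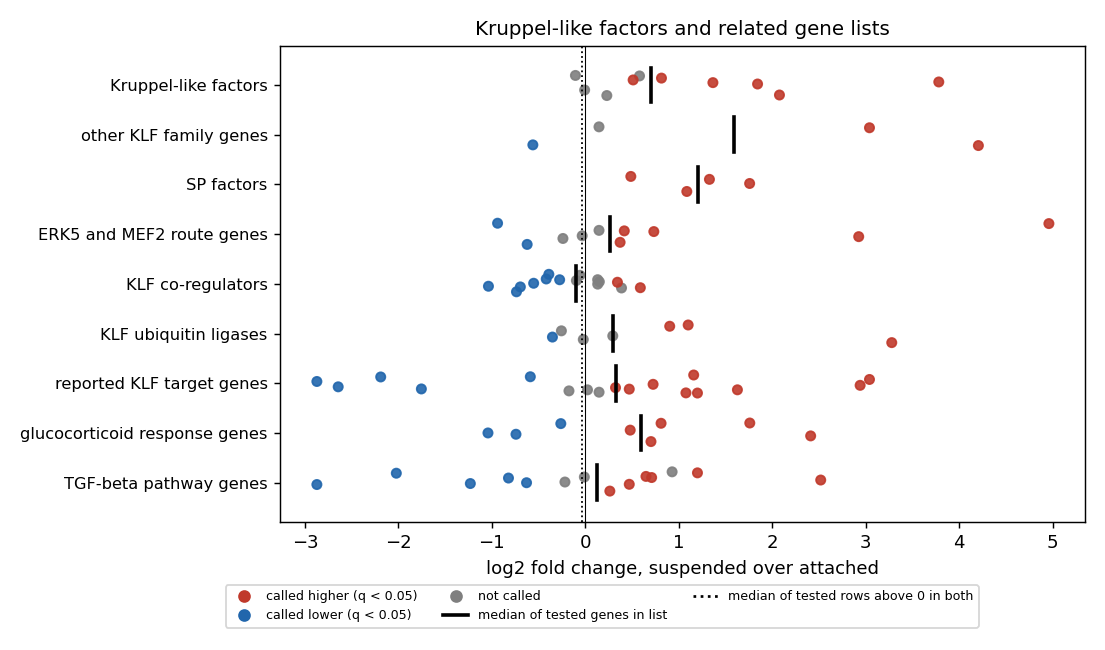
Log2 fold changes (authors' deposited table) of the tested genes of 9 lists, suspended over attached, with 1 point a gene and colour for the call, with a black bar at each list median and a dotted line at -0.04, the median of tested rows above 0 in both conditions. The 10 KLF genes have a median of 0.70 with no gene called lower, while the co-regulators have a median of -0.10.

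Markers of other cell types, some of which are known to express Klf2, were read beside these results. The shares of all tested rows were 24.7% called higher and 26.3% lower. Of the 7 endothelial markers with a row 6 were below 1 FPKM in both conditions, Emcn was listed at 0 in both, and Pecam1 had 0.0675 and 0.0946 FPKM (authors' deposited table). Their summed level was 1.03 FPKM attached and 3.01 FPKM suspended, and both tested ones, Flt1 (q = 0.000185) and Vwf (q = 0.0379), were called higher (authors' deposited table). The 8 leukocyte markers summed to 25.9 FPKM attached, most of it Cd68 at 23.4, and 50.8 FPKM suspended, with all 3 tested members called higher (authors' deposited table). Ptprc rose from 1.42 to 12.4 FPKM, close to the 13.1 FPKM of Klf2, and Cd68 from 23.4 to 34.9 FPKM, whereas Cd3e had 0.0103 and 0.0558 FPKM (authors' deposited table). The 5 podocyte markers summed to 4.13 and 20.6 FPKM and the 7 fibroblast markers to 0.225 and 1.97 FPKM (authors' deposited table). Mitochondrial rows, a sign of RNA quality, summed to 31198 and 68368 FPKM (authors' deposited table). Of their 10 tested rows 3 were called higher and 0 lower, a share of higher calls near that of all tested rows. The part of these markers in the rises of the KLF genes was not tested.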

How the data were processed

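Messenger RNA libraries were sequenced on a HiSeq instrument, per the labels' protocols. TopHat, Bowtie, Cufflinks 1.0.3 and Cuffdiff are named with mm10, per the submitters' processing notes. Any setting, annotation or strand use is not given in the sources used here. In the file each condition has a single FPKM, which the authors made over its 3 libraries. The authors also deposited, per the file headers, a log2 fold change, a score for their test, and its p-value and q-value. The log2 ratio recomputed from FPKM differed from the deposited one by at most 4.02e-05.

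Libraries were not tested again, and a gene was called where the authors' q was below 0.05, over 14748 tested rows. Row starts count from 0 in the table and are printed counted from 1. The members and lists were chosen with earlier results of these data known. A repeated name was read from its longest row, and symbols without a row of their own (Mef2b, Ctbp2 and Eng, merged with other genes) were left out. The text names all tested KLF and SP genes, and in each other list up to 4 called genes with the largest log2 change and at least 1 FPKM in the higher condition, with exceptions marked. Some genes of these lists are not reported here. Likeness between genes was not computed, as each has 2 values. Promoters came from RefSeq, gene positions from GENCODE M21. The calculations were tested on simulated data. Alternatives covered threshold, 2-fold minimum, adjustment, a filter at 1 FPKM, centring and pseudocounts of 1 and 0.1. Python 3.11.15, NumPy 2.4.6, pandas 2.3.3, SciPy 1.17.1 and matplotlib 3.10.9 were used.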

Additional observations from a re-analysis of the deposited data

How the results depend on the processing

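The count of 6 called KLF genes, all higher, stayed at 6 with q below 0.01, with the Benjamini-Hochberg adjustment recomputed and with rows of at least 1 FPKM on average, and was 4 whenever a 2-fold change was also required. Centring leaves the authors' q as it is, so it could not change which genes pass the threshold. Centring on the median of rows with at least 1 FPKM in both conditions (log2 of -0.11) turned the direction of 2 uncalled genes, Klf3 to 0.10 and Klf13 to 0.0024. A pseudocount of 1 lowered the log2 fold change of Klf2 from 3.78 to 2.85 and that of Klf4 from 2.08 to 1.76. Counts of called genes in the other lists fell when a 2-fold change was required without a pseudocount, and equally with a pseudocount of 0.1: ERK5 and MEF2 route 7 to 2, co-regulators 9 to 1, ubiquitin ligases 4 to 2, glucocorticoid response 8 to 3 and TGF-beta pathway 11 to 5. The reported KLF targets went from 14 to 10, the other KLF genes from 3 to 2 and the SP factors from 4 to 3. With a pseudocount of 1 and 2-fold these counts were, in the same order, 1, 0, 2, 3, 5, 10, 1 and 2. The other KLF genes were also 2 with q below 0.01 and with rows of at least 1 FPKM on average, as the call of Klf12 was lost. Over all tested rows a 2-fold change left 2883 of 7524 calls, or 1696 with a pseudocount of 1. No paired analysis was possible because the deposited values are 1 per condition, and for the same reason leaving out a replicate, another test and another normalization were not run. Depth is unknown, so it is not known which uncalled differences it could have shown.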

Other observations

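Rows within 10000 bases of the 10 KLF genes were read for transcripts that moved with them. Next to Klf11, at a distance of 3064 bases, lies Cys1, which encodes a protein of the primary cilium. It fell from 14.2 to 5.89 FPKM (q = 0.000185, authors' deposited table), while Klf11 rose. Next to Klf9, at 5509 bases, 2410080I02Rik was listed at 0 attached and 0.890 FPKM suspended (q = 0.000185, authors' deposited table). Besides Cys1 and 2410080I02Rik, no row within that distance of the 10 genes was called, and Klf2, Klf4, Klf5, Klf6 and Klf10 had no other row that near.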
